A study of Mus musculus with 3 samples.

Results

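The matrix-binding integrin genes Itga2, Itga3, Itga4, Itga5, Itgav, Itgb1, Itgb3 and Itgb4 were taken by name, and they are 8 of the 84 extracellular matrix (ECM) genes for which positions in the mouse genome build mm9 were given. H3K27ac, the acetylation of lysine 27 of histone H3 that marks active promoters and enhancers, had been profiled by ChIP-seq in tibialis anterior (TA) muscle, a muscle of the lower leg, from C57/BL6 mice aged 2, 10 and 20 months. All mice were of the same strain with no treatment named, the antibody against H3K27ac (Abcam) was the same throughout, and each age was represented by 1 library, so that no difference between ages could be tested against replicate spread. How many mice gave each library is not given in the sources used here. Every peak of the 3 lists was assigned to the nearest of the 84 transcription start sites (TSSs) when its edge lay at most 100 kb away, as a promoter peak within 2.5 kb and as a distal peak beyond. This gave the 8 genes 16, 40 and 47 peaks at 2, 10 and 20 months, out of 17884, 35221 and 44752 peaks in the lists. Positions of regions are given below as the distance of their middle from the TSS, negative upstream. Distal refers to the 84 TSSs only, so that a distal peak may lie at the promoter of a gene outside the 84.

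Integrins are receptors of 1 α and 1 β chain that span the cell membrane and tie the matrix outside to the cytoskeleton inside. The β chain Itgb1 pairs with Itga2 to bind collagen, with Itga3 to bind laminin, with Itga5 to bind fibronectin and with Itga4 to bind fibronectin or the endothelial counter-receptor Vcam1, while Itgav pairs with Itgb3 and other β chains to bind ligands with an RGD motif such as vitronectin. Itgb4 pairs with Itga6 as the laminin receptor of hemidesmosomes in epithelia and is also made by Schwann cells. In muscle, β1 integrins hold the myofiber to the laminin of its basement membrane and take part in keeping SCs (satellite cells, the muscle stem cells) in their niche, and αv integrins are known as activators of latent TGF-β in fibrotic tissue.

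Among these genes, Itgb1, Itgav and Itga5 had a promoter peak at every age. The TSS used for Itga3 carried none, but distal peaks flanked another RefSeq start of that gene. The promoters of these genes are therefore shown, as 300 bases of GRCm38.p6 from RefSeq that run from 250 bases before to 50 bases after the start, 5′ to 3′ along the gene's own strand, with every GC box (GGGCGG on either strand, so also CCGCCC) in capitals.
Itgb1, chr8:128685404-128685703, plus strand: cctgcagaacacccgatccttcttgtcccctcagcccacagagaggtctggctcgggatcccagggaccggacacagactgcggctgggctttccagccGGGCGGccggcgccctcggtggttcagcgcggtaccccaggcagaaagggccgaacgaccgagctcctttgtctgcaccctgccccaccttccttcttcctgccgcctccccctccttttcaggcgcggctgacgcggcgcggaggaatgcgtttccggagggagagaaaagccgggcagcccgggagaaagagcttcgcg
Itgav, chr2:83724147-83724446, plus strand: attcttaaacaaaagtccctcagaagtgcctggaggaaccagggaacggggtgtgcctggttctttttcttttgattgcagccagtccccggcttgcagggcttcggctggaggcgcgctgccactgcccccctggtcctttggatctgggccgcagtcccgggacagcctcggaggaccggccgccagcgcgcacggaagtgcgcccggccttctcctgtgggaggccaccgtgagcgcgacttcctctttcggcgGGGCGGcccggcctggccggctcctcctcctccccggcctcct
Itga5, chr15:103366742-103367041, minus strand: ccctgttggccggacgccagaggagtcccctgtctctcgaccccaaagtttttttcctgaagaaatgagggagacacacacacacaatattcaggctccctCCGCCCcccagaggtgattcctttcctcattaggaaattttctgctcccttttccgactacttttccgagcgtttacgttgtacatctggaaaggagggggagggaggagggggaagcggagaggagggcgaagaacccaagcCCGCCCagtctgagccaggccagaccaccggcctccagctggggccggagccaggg
Itga3, start upstream of the TSS used, chr11:95076665-95076964, minus strand: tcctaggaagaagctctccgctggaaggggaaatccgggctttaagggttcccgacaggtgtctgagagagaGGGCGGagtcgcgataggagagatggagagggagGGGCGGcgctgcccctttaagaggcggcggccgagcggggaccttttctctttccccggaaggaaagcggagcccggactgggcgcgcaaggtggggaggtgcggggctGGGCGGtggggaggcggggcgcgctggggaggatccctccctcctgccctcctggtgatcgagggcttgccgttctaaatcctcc
Itga3, TSS used, chr11:95069149-95069448, minus strand: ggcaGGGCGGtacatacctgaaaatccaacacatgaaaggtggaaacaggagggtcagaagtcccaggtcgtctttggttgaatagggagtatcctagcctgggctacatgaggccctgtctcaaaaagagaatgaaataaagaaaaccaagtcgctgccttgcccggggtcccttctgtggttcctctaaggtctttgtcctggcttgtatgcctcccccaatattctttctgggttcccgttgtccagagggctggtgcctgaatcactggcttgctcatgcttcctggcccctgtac
The table of sequences held 32851 promoters, 7 of them of 6 of the 8 genes. The genes Itgb3 and Itgb4 are named only.

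CpG dinucleotides, which are dense in the promoters of widely used genes, numbered 27 in the 300 bases of Itgb1, 24 in those of Itgav and 13 in those of Itga5, against a median of 7 over all promoters in the table. As many CpGs or more were held by 15.5% of all promoters for Itgb1, by 20.0% for Itgav and by 37.9% for Itga5. The promoters of Itgb1 and Itgav, the β and α chains with the most partners in the group, were thus denser in CpGs than that of Itga5. The 2 starts of Itga3 differed in this measure, with 24 CpGs at the upstream start and 5 at the TSS used. Itga4 had 10 CpGs and Itga2 had 13.

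A GC box, the element bound by Sp1, was found in all 7 promoters and in 35.7% of all promoters in the table. There were 3 of them at the upstream start of Itga3, 2 in Itga5 and 1 in each of the other 5 promoters. The ETS core TTCCGG occurred in Itgb1 and at the upstream start of Itga3, and in 14.9% of all promoters. The E-box of myogenic factors, CAGCTG, occurred in Itga4 and Itga5 (16.3% of all promoters), and the AP-1 element TGANTCA at the TSS used for Itga3 (7.81%). Neither TATAAA (13.6% of all promoters) nor the E-box CACGTG (7.15%) was found in any of the 7. All motifs were searched on both strands, and these letters describe the window only.

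The lists themselves differed before any gene was looked at. At 2, 10 and 20 months the libraries held 15933343, 18888715 and 26302098 uniquely mapped reads. The fragment length was not measured but taken as the smallest peak width in each list, 148, 222 and 178 bp. At 78.3% of the 2-month peaks the background equalled the genome mean, which held for 2.87% of the 10-month and 4.89% of the 20-month peaks, so that the folds and p-values of the lists were not compared. Instead, the number of reads at each summit was solved from the deposited fold and −log10 p and set against the genome mean, a coverage of 1.26, 2.24 and 2.504 reads in the 3 libraries in order of age. In the same order the smallest summits called were 6.34, 4.46 and 3.99 times the genome mean. These smallest summits are not fixed limits of calling, since at the later ages most peaks had a background above the genome mean. At the Itgb1 promoter at 10 months, for example, it was 16.25 reads. A region without a peak is therefore one that was not called, and its signal may have lain below or above these smallest summits. Whole muscle holds many cell types, and more cells of a type cannot be told apart from more of the mark per cell. No gene outside the 84 had a position, so myofiber markers could not be examined, and the labels name TA muscle as the tissue although their extraction text speaks of SCs.

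The distal peaks of the 8 genes together numbered 11, 33 and 38 at 2, 10 and 20 months. At least 1 distal peak stood beside 6 of the 8 genes at 2 months and beside 7 of the 8 at both later ages. In the lists at full length, most of the difference in number lay between 2 and 10 months. The other 76 ECM genes had 183, 315 and 420 distal peaks at 2, 10 and 20 months, at 35, 50 and 56 genes. The summed number at 10 months over that at 2 months was 3.00 for the 8 genes and 1.72 for the other 76, and at 20 months over 2 months it was 3.45 and 2.30. The mean number per gene was 1.375, 4.125 and 4.75 for the 8 genes and 2.41, 4.14 and 5.53 for the other 76. By the mean, the larger ratios of the 8 genes thus went with a lower number at 2 months and not with a higher number later. The median per gene was higher for the 8 genes at every age, with 1, 3.5 and 4.5 against 0, 2 and 3 for the other 76. Single genes among the 76 had up to 20, 20 and 23 distal peaks.

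With the lists at full length, more distal peaks at 10 than at 2 months were found for 7 of the 8 genes, against 57.1% of all 84 ECM genes. The same 7 of 8 genes had more at 20 than at 2 months, against 67.9% of the 84. The exception at both ages was Itga4, without any distal peak. Between 20 and 10 months, 3 of the 8 genes had more, 1 had fewer and 4 had equal numbers, while 56% of all 84 ECM genes and 57.9% of the other 76 had more. With 8 genes and 1 library per age these shares are descriptions, and no test separates the integrin genes from the rest of the ECM genes.

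The lengths of the lists entered these counts. As a share of all peaks of the library, the distal peaks of the 8 genes made up 0.0615% of the 2-month list (exact 95% interval 0.0307 to 0.110), 0.0937% of the 10-month list (0.0645 to 0.132) and 0.0849% of the 20-month list (0.0601 to 0.117), and the 3 intervals overlapped. These and all further intervals are for 95% and cover counting error only. When each list was reduced to its 17884 peaks with the smallest q, the 8 genes had 11, 15 and 19 distal peaks at 2, 10 and 20 months. In the 50% of each list that ranked best by q they had 7, 15 and 23. The order of the ages in these totals was thus the same, but the step between 2 and 10 months was then no larger than that between 10 and 20 months. At equal length, Itga5 (1, 3 and 2), Itgb1 (1, 2 and 1) and Itgb4 (3, 5 and 9) had more distal peaks at 10 than at 2 months. Itga5, Itgb4 and Itgav (1, 1 and 2) had more at 20 than at 2 months. Itga3 had 4, 3 and 4, Itgb3 had 1 at each age, and Itga2 and Itga4 had none. A higher number at 7 of the 8 genes was thus not seen at equal length.

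**Figure D1:**
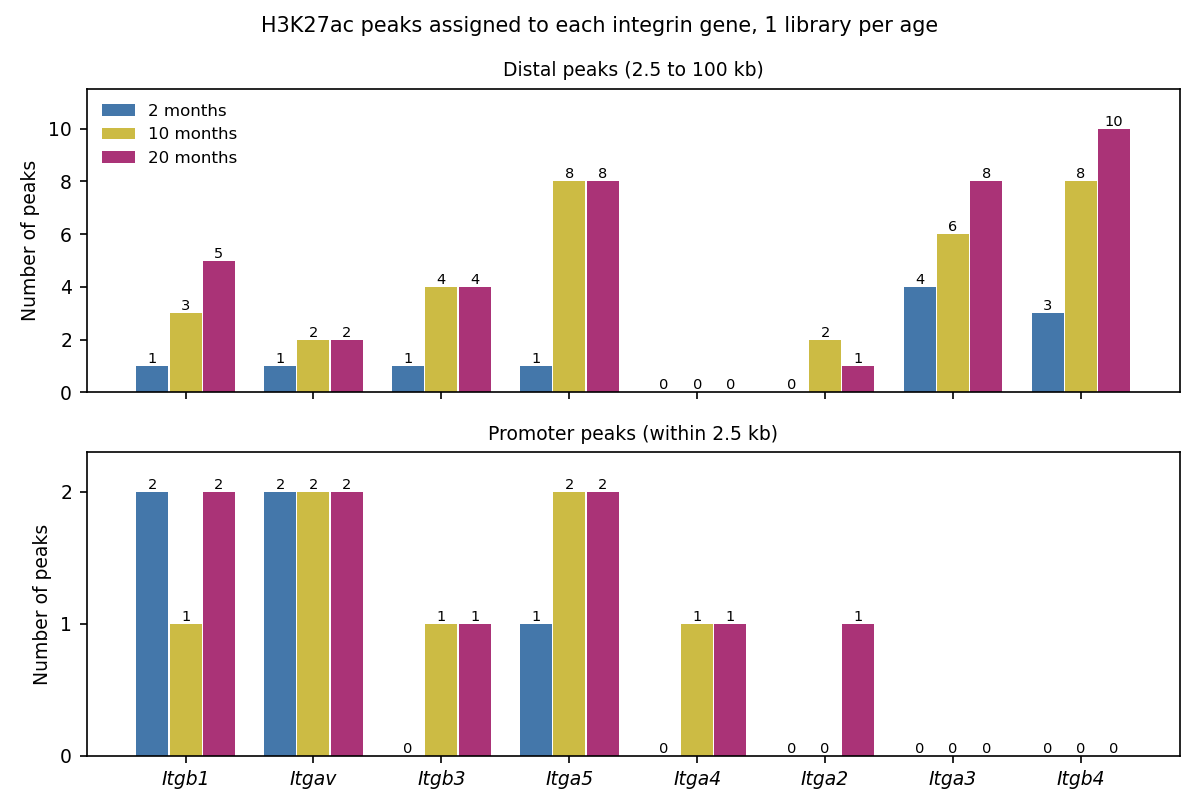
Number of H3K27ac peaks (y axis) assigned to each of the 8 integrin genes (x axis) at 2, 10 and 20 months, with distal peaks in the upper panel and promoter peaks in the lower panel and 1 library per age. Itgb4 has the most distal peaks at 20 months (10), Itga4 has none at any age, and the promoters of Itga3 and Itgb4 carry no peak.

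Itgb1 (mm9, chr8:131209554-131257479), the common β chain, had 1, 3 and 5 distal peaks at 2, 10 and 20 months. Its promoter carried 2, 1 and 2 peaks, which lay on both sides of the CpG-rich start printed above at 2 and 20 months. The peak just upstream of the start (mm9, chr8:131208863-131209545) was called at all ages with 23, 85 and 88 summit reads at 2, 10 and 20 months. That is 18.2, 37.9 and 35.1 times the genome mean, or percentile 93.6, 98.3 and 96.7 of all summits in the list of each age, and since the lists differ in length and in their smallest summit, percentiles are not compared between ages. Relative to the genome mean it was 2.08 times as high at 10 as at 2 months (95% interval 1.30 to 3.45) and 1.93 times as high at 20 as at 2 months (1.21 to 3.20). The Itgb1 promoter was thus in the upper part of every list, and both intervals lay above 1.

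On the other side of the Itgb1 start, a peak of 24 reads at 2 months and of 88 reads at 20 months was called, and none at 10 months, where the 1 promoter peak lay upstream. At 20 months both sides held 88 reads. The distal region at −30.7 kb (mm9, chr8:131178507-131179252), towards the neuropilin gene Nrp1, had 17, 43 and 62 reads at 2, 10 and 20 months, which is 13.5, 19.2 and 24.8 times the genome mean. Its ratio was 1.42 at 10 over 2 months (0.795 to 2.66) and 1.84 at 20 over 2 months (1.06 to 3.35), so that only the second interval lay above 1. Regions at −31.7 and −5.47 kb had peaks at 10 and 20 months, and 1 at −90.7 kb had a peak at 20 months alone, with 28 reads.

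Itgav (mm9, chr2:83564554-83647074), the α chain of most RGD-binding integrins, carried 2 promoter peaks at every age, 1 on each side of its start. Upstream of the start (mm9, chr2:83563762-83564486) the summit held 18, 67 and 60 reads at 2, 10 and 20 months, or 14.3, 29.9 and 23.97 times the genome mean. The ratio was 2.09 at 10 over 2 months (1.23 to 3.74) and 1.68 at 20 over 2 months (0.978 to 3.02). Downstream of the start (mm9, chr2:83564660-83565365) it held 27, 42 and 41 reads, or 21.4, 18.7 and 16.4 times the genome mean. There the ratios were 0.875 (0.527 to 1.48) and 0.765 (0.459 to 1.29), the only ones below 1 among the 11 integrin regions with a peak at all ages. With summit reads divided by sequencing depth alone (RPM) and not by the genome mean, the first of them turned to 1.31 and the second stayed below 1, at 0.920.

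Within the same library, where depth and fragment length are shared, the upstream over the downstream summit of Itgav was 0.667 (0.346 to 1.26), 1.60 (1.07 to 2.41) and 1.46 (0.968 to 2.23) at 2, 10 and 20 months. The downstream summit was the higher one at 2 months and the upstream summit at both later ages, with an interval clear of 1 at 10 months alone. These 3 intervals overlapped, as did those of the ratios between ages on the 2 sides, and the difference between the sides was not tested. Of the distal regions of Itgav, that at −79.6 kb had a summit of 16 reads at 2 months and 40 at 20 months, with a ratio of 1.26 (0.690 to 2.41). The neighbouring region at −80.3 kb held 33 reads at 10 months and 31 at 20 months.

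Itgb3 (mm9, chr11:104469314-104531785), the β3 chain that joins Itgav on osteoclasts and endothelium, had 1 distal peak at 2 months and 4 at each later age. Its region at −57.9 kb (mm9, chr11:104410985-104411829) had 20, 88 and 99 reads at 2, 10 and 20 months, which is 15.9, 39.2 and 39.5 times the genome mean. The ratio was 2.47 at 10 over 2 months (1.51 to 4.25) and 2.49 at 20 over 2 months (1.53 to 4.26). The next gene on that side is Myl4, an atrial and embryonic myosin light chain, and the gene to which the region belongs was not tested. A pair of regions at −41.1 and −40.4 kb had peaks at 10 months (45 and 53 reads) and 20 months (43 and 54 reads). The promoter peak of Itgb3 was called at 10 months with 17 reads (7.58 times the genome mean) and at 20 months with 23 reads (9.19 times), and not at 2 months.

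Itga5 (mm9, chr15:103174718-103197222), the α chain of the fibronectin receptor, had 1 distal peak at 2 months and 8 at each later age, a difference of 7 that only Itgb4 matched, at 20 months. Its promoter peak (mm9, chr15:103196164-103197236) held 21, 60 and 58 reads at 2, 10 and 20 months, or 16.7, 26.8 and 23.2 times the genome mean. The ratio was 1.61 at 10 over 2 months (0.963 to 2.78) and 1.39 at 20 over 2 months (0.832 to 2.41), and both intervals held 1. The only distal region of Itga5 with a peak at all ages lay 61.0 kb downstream (mm9, chr15:103136028-103136377), with 16, 36 and 49 reads and ratios of 1.27 (0.684 to 2.44) and 1.54 (0.862 to 2.91). The number of peaks at Itga5 depended on the length of the lists, since at equal length it was 1, 3 and 2 at 2, 10 and 20 months.

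Of the other Itga5 regions, those 42.9, 51.1, 62.0 and 93.6 kb downstream had peaks at both later ages, with 22, 21, 37 and 50 reads at 10 months and 18, 23, 39 and 42 reads at 20 months. A pair within the gene, 6.69 and 8.22 kb past the start, was called at 10 months alone with 29 reads each. The downstream side runs towards Zfp385a and Gpr84, and the gene to which these peaks belong was not tested.

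Itga4 (mm9, chr2:79095583-79173271), the α4 chain of leukocytes and myoblasts, was alone among the 8 genes in having no distal peak at any age. A peak over its promoter was called at 10 months with 30 reads (13.4 times the genome mean) and at 20 months with 42 reads (16.8 times). No peak was called there at 2 months, when 3 of the 8 genes had a promoter peak.

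Itga2 (mm9, chr13:115626120-115722249), the α2 chain of the collagen receptor of platelets and epithelia, had no summit above 7.14 times the genome mean. No peak was called at 2 months, 2 within the gene at 10 months with 14 and 16 reads, and at 20 months 1 within the gene with 17 reads and 1 upstream of the TSS with 16 reads. The last of these was 6.39 times the genome mean, percentile 6.56 of the 20-month list. The span of Itga2 to its RefSeq start in GRCm38.p6 was 2890 bases longer than its span in the mm9 positions. Whether this difference lies at the start or at the other end of the gene was not examined.

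Itga3 (mm9, chr11:94905789-94930512), the α3 chain of a laminin receptor, had 4, 6 and 8 distal peaks at 2, 10 and 20 months and no promoter peak. Its highest regions lay 27.2 kb (mm9, chr11:94902940-94903627) and 28.2 kb (mm9, chr11:94902033-94902624) past the start, just beyond the end of the 24.7 kb gene on the side of Pdk2, a kinase of the pyruvate dehydrogenase complex. The region at 27.2 kb had 14, 81 and 81 reads at 2, 10 and 20 months, or 11.1, 36.1 and 32.4 times the genome mean. Its ratio of 3.25 at 10 over 2 months (1.83 to 6.22) was the highest among the integrin regions with a peak at all ages, and at 20 over 2 months the ratio was 2.91 (1.64 to 5.57). The region at 28.2 kb had 17, 85 and 92 reads and ratios of 2.81 (1.66 to 5.05) and 2.73 (1.61 to 4.88). Both intervals of both regions lay above 1. Whether these regions belong to Itga3, to Pdk2 or to another gene was not tested.

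The absence of a promoter peak at Itga3 depends on the start used. The span of Itga3 in the mm9 positions, 24724 bases, equals the span in GRCm38.p6 from the gene end to the internal start printed last above. The other RefSeq start lies 7.52 kb further upstream, if that distance is the same in both builds. Peaks counted here as distal flanked that point at every age. At 2 months 1 lay from 6.90 to 7.17 kb upstream of the TSS used with 10 reads, at 10 months 1 from 7.65 to 8.14 kb with 25 reads, and at 20 months 1 from 7.25 to 7.48 kb with 32 reads and 1 from 7.61 to 7.89 kb with 36 reads. Their edges were 37 to 347 bases from the upstream start, the CpG-rich one with 3 GC boxes. Counted as promoter peaks, they left 10, 32 and 36 distal peaks for the 8 genes and brought the genes with a promoter peak to 4, 6 and 7 at 2, 10 and 20 months. This way of counting was chosen once the peaks had been examined.

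Itgb4 (mm9, chr11:115836039-115869725), the β chain of the hemidesmosome laminin receptor, had 3, 8 and 10 distal peaks at 2, 10 and 20 months and no promoter peak. The region 49.3 kb past its start (mm9, chr11:115884889-115885836) was the highest integrin region at both later ages, with 24, 97 and 129 reads at 2, 10 and 20 months or 19.0, 43.3 and 51.5 times the genome mean. It stood at percentile 94.7, 99.3 and 99.8 of the list of each age, with ratios of 2.27 at 10 over 2 months (1.44 to 3.72) and 2.71 at 20 over 2 months (1.74 to 4.38). The region 56.2 kb past the start (mm9, chr11:115891595-115892846) had 26, 95 and 92 reads and ratios of 2.05 (1.32 to 3.30) and 1.78 (1.14 to 2.87). Both lie beyond the end of the 33.7 kb gene, where RefSeq places Galk1 and then H3f3b, which encodes histone H3.3. Which of these genes the peaks belong to was not tested, and the Itgb4 promoter itself was without a called peak at every age.

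**Figure D2:**
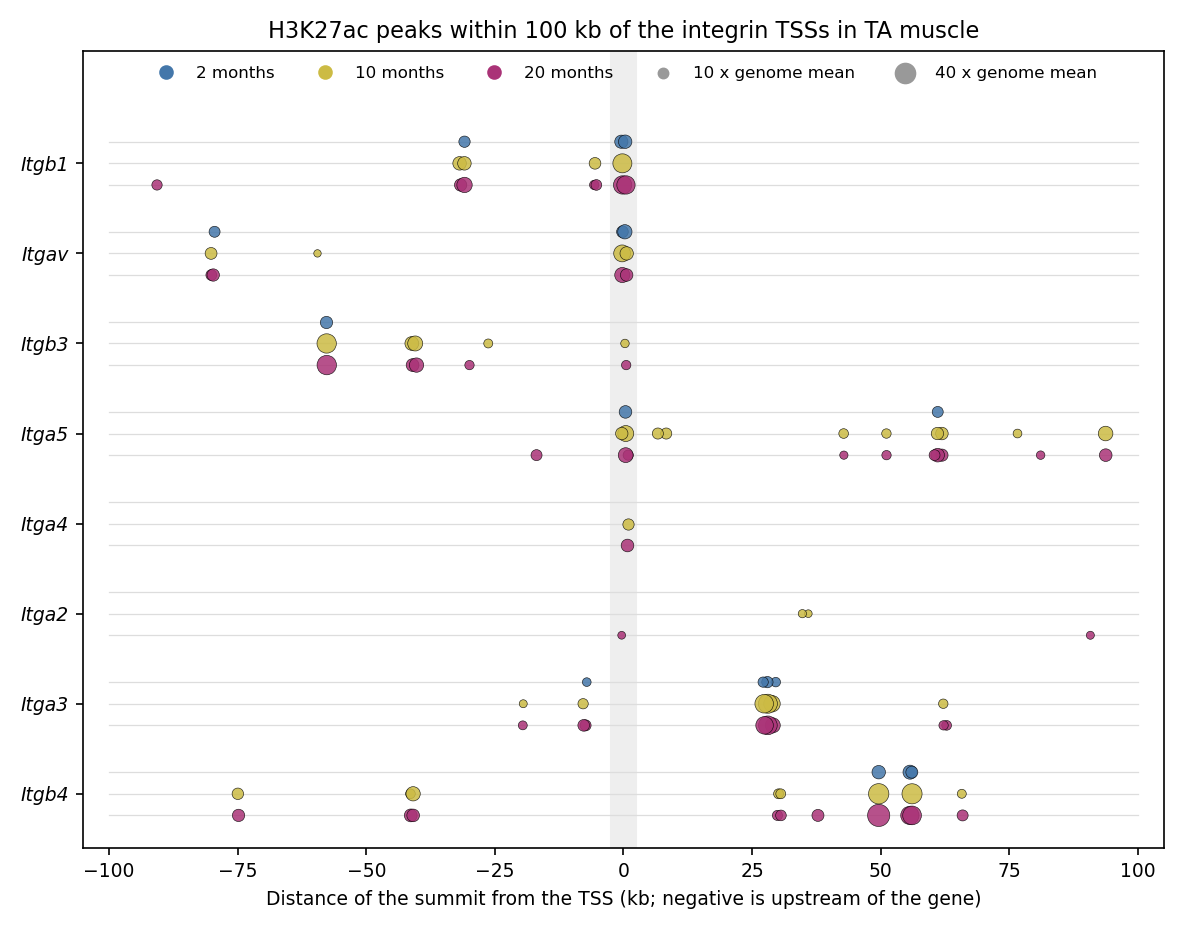
Position of every H3K27ac peak summit within 100 kb of the TSS of each integrin gene (x axis, kb from the TSS, negative upstream), with 1 line per age for each gene (y axis), the area of a point growing with summit coverage over the genome mean and the promoter window of 2.5 kb shaded. The 3 promoters with a peak at every age are those of Itgb1, Itgav and Itga5, and the largest points are the regions of Itgb4, Itgb3, Itga3 and the Itgb1 promoter at the later ages.

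Across the 8 genes, promoter peaks stood at 3, 5 and 6 genes at 2, 10 and 20 months. The genes that had one at 20 and not at 2 months were Itga2, Itga4 and Itgb3, which is 3 of 8, against 23.8% of all 84 ECM genes. The other 76 genes had a promoter peak at 19, 24 and 36 genes. The share of genes with a promoter peak was higher among these 8 genes than among the other 76 at each age, without a test. It is not a trait of integrin genes in general, since the 5 integrin genes of leukocytes, which are among the 76, had a promoter peak at 0, 0 and 1 gene.

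The peaks of the 3 ages merged into 45 distal and 9 promoter regions of these genes, among 52693 regions in all. Of the 45 distal regions, 7 were called at all ages, 19 at both later ages, 9 at 20 months alone, 7 at 10 months alone, 2 at 2 months alone and 1 at 2 and 20 months. Regions called at both later ages and not at 2 months were the largest class, with 42.2% of the distal integrin regions, against 31.8% of the distal regions of the other ECM genes. Both regions called at 2 months alone belonged to Itga3, and they lay 78 and 117 bp from a region of a later age. They were therefore neighbours of later peaks and not isolated ones.

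In all, 39 integrin regions lacked a peak at 2 months, 35 of them distal. Such regions made up most of all 52693 regions too. There, 33.8% were called at both later ages only, 24.6% at 20 months alone and 10.4% at 10 months alone. Their highest later summit ranged over 5.80 to 28.5 times the genome mean with a median of 12.8. The smallest summit called at 2 months exceeded that of 2 of these regions, and the 2-month median of 11.1 times exceeded that of 16. The later summit of the others exceeded the median of the peaks called at 2 months.

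The regions that every list called were compared by height, and only places called already at 2 months can be among them. For the 7 distal integrin regions the median ratio of summit coverage was 2.27 at 10 over 2 months and 2.49 at 20 over 2 months. Over all 10596 such regions of the lists it was 1.95 and 2.08, with the middle 50% of regions between 1.48 and 2.47 and between 1.62 and 2.58. The ratio exceeded 1 at 7 of 7 distal integrin regions in both comparisons, against 93.5% and 95.8% of all regions. Its interval lay above 1 at 5 of 7 (10 over 2 months) and 6 of 7 (20 over 2 months), against 58.1% and 65.8%. At 10 over 2 months both Itga3 regions and that of Itgb3 lay above the middle 50% of all regions, and those of Itga5 and Itgb1 below it. At 20 over 2 months both Itga3 regions and the Itgb4 region at 49.3 kb lay above it, and that of Itga5 below. A ratio above 1 was thus shared by nearly all regions of the lists and is not particular to the integrin genes. On the RPM scale the median over all regions was 2.92 and 2.504 in place of 1.95 and 2.08. The 4 promoter regions had medians of 1.84 and 1.54.

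**Figure D3:**
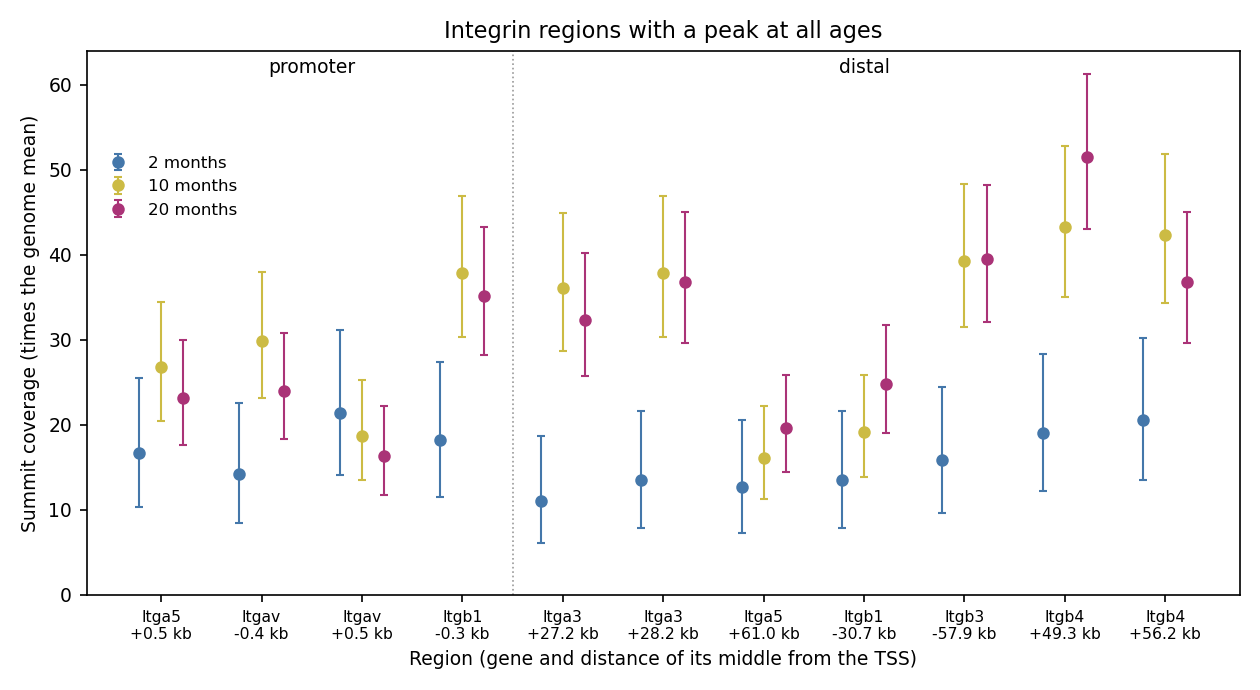
Summit coverage (y axis, times the genome mean) of the 11 integrin regions with a peak at all ages (x axis, gene and distance from the TSS), with 1 point per library and bars for the exact 95% counting interval. The 2-month point is the lowest at every region but the downstream side of the Itgav start, where it is 21.4 against 18.7 and 16.4.

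**Figure D4:**
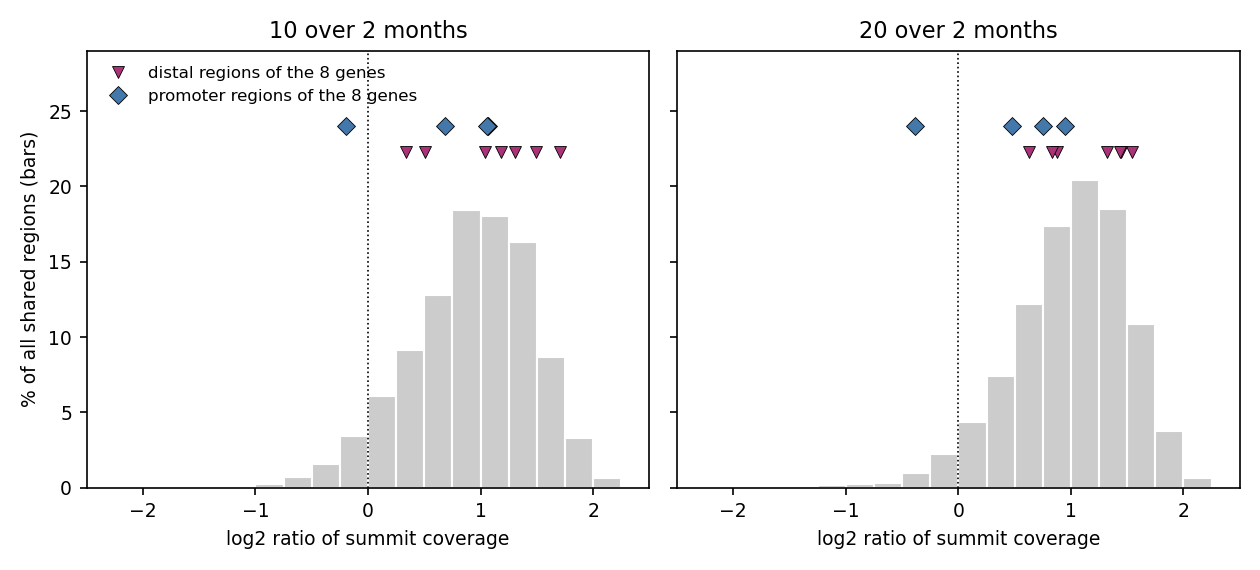
Distribution of the log2 ratio of summit coverage (x axis) over all 10596 regions with a peak at all ages, as the percent of regions per bin (bars, y axis), at 10 over 2 months and 20 over 2 months, with the integrin regions as symbols placed above the bars at a height without meaning. All 7 distal regions lie to the right of 0, as do most regions of the lists, and 1 of the 4 promoter regions lies to the left.

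Between 20 and 10 months the integrin regions were nearly level. The median ratio at the 7 distal regions was 1.01, with 4 of 7 above 1 against 63% of all shared regions. On the RPM scale it was 0.808, against 0.851 over all shared regions. None of the 7 intervals excluded 1, against 3.91% over all regions. At the 4 promoter regions the median ratio was 0.870, and all 4 lay below 1.

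The 21 integrin regions called at 10 and 20 months only gave the same picture, with a median ratio of 0.981 at 20 over 10 months and a range of 0.733 to 1.75. There were 9 above 1 and 12 below. The interval excluded 1 at a single region, at −41.4 kb from Itgb4, with 43 reads at 20 months and 22 at 10 months (ratio 1.75, 1.02 to 3.07). With 21 intervals, 1 such region is not singled out here.

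A list of 21 ligand genes of these integrins, chosen by name from the 84, had 41, 80 and 125 distal peaks at 2, 10 and 20 months. The list is not complete, and Postn, given below with the fibroblast markers, is not in it. More distal peaks at 20 than at 2 months were found for 16 of the 21, fewer for 1 and equal numbers for 4. The 16 are 76.2%, near the 67.9% of all 84 ECM genes. These counts are from the lists at full length, and lists of equal length were not examined for the ligand genes. The laminin chains, ligands of the Itga3 and Itgb4 receptors, had 20, 41 and 58, and all 6 had more at 20 than at 2 months. The collagens had 13, 20 and 36 over 8 genes. Of the 6 glycoproteins, 4 had more at 20 than at 2 months. Tnc and Thbs1 had no distal peak at any age, but Thbs1 had 2 promoter peaks at 20 months. Among the 4, Fn1 (fibronectin, bound by Itga5) had 0, 2 and 2, Vtn (vitronectin, bound by Itgav with Itgb3) 5, 7 and 10, and Spp1 (osteopontin) 1, 6 and 9. The counter-receptor gene Vcam1 had 0, 1 and 2. As to the later ages, 16 of the 21 ligand genes had more distal peaks at 20 than at 10 months, against 3 of the 8 integrin genes. The share was 57.9% among the 76 ECM genes other than these 8, which include the 21 ligand genes and the 5 leukocyte integrin genes. No test was made of these differences.

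Of the 5 marker lists fixed within the 84 genes, some share members with the ligands (Vcam1, Lamb3, Col1a1 and Col3a1). The leukocyte integrin genes Itgae, Itgal, Itgam, Itgax and Itgb2, receptors of white blood cells, had 36, 55 and 57 distal peaks at 2, 10 and 20 months, at 4, 5 and 5 of 5 genes, and they stand here for the leukocyte markers. The endothelial markers Pecam1, Sele, Vcam1, Icam1 and Selp had 14, 20 and 27 distal peaks at 3, 4 and 4 of 5 genes, with Selp at 0 throughout. The fibroblast markers Col1a1, Col3a1, Fbln1, Mmp2 and Postn had 6, 6 and 13 at 1, 2 and 3 of 5 genes, with Postn at 0 distal peaks. Epithelial markers (Cdh1, Cdh3, Lamb3) had 5, 14 and 25 at 2, 3 and 3 of 3 genes. Of the nervous system markers, Syt1 had 1 distal peak at 20 months, and Cntn1, Ncam2 and Ctnna2 had none. Promoter peaks stood at 0, 0 and 1 of the 5 leukocyte integrin genes and at 1, 1 and 2 of the 5 endothelial genes. They stood at 0, 2 and 4 of the 5 fibroblast genes, with 1 at Postn at 10 and at 20 months. The epithelial and nervous system lists had none. Each of the 5 lists thus had more distal peaks at 20 than at 2 months, 1 more in the nervous system list. These counts are from the lists at full length, which held 17884 peaks at 2 months and 44752 at 20 months. The summed number at 20 over 2 months was 1.58 for the leukocyte integrin genes, 1.93 for the endothelial and 2.17 for the fibroblast markers. These ratios lay below the 2.30 of the other 76 ECM genes, which include the markers, and that of the epithelial markers lay above it. The part of the 5 marker lists in the integrin counts was not tested.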

How the data were processed

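H3K27ac ChIP-seq of TA muscle at 2, 10 and 20 months was used, with 1 library per age (15933343 to 26302098 uniquely mapped reads, the totals given with the study). The submitters' processing notes name Bowtie2, mm9 and MACS2 2.1.0, and whether a control library was used is not given in the sources used here. The deposited peak lists hold for each peak a score, a fold (the ratio of summit pileup to background), a −log10 p and a −log10 q, all made by the authors with MACS2. The −log10 q ranked peaks within a list and the score was not used. Human samples, SC data and JQ1 treatment were not analysed here.

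With scipy 1.17.1, matplotlib 3.10.9, numpy 2.4.6 and pandas 2.3.3 under Python 3.11.15, the whole number of summit reads was solved from each fold and −log10 p (tolerance 0.001 in −log10 p, recovered for 100% of 5000 simulated peaks per library, and 1 peak each at 10 and 20 months not solved). Coverage was divided by the genome mean, which is uniquely mapped reads times fragment length over 1870000000 bases. The smallest peak width of each list stood for the fragment length, and the ratios between ages depend on it. Peaks sharing at least 1 bp formed a region, whose level was its highest summit. Positions of the 84 genes come from the study's list of ECM genes, and promoters and neighbouring genes from RefSeq (GRCm38.p6). No mm9 genome or full annotation was used.

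Ratios between ages have exact conditional binomial 95% intervals and shares have Clopper-Pearson intervals. Both cover counting error only, and reads from PCR are not independent molecules. No test of age was made, since each age had 1 library, and genes and regions were not treated as replicates. One gene of the marker lists is not reported here. All 8 genes are named, and beside each stands the other ECM gene with the smallest sum of absolute differences in distal peak numbers. The members, gene lists and motifs were chosen with earlier results of these data known. The alternatives were other distance limits, stricter or equal-length lists, merged peaks, a minimum width, every TSS within reach, RPM, and a 50% overlap.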

Additional observations from a re-analysis of the deposited data

How the results depend on the processing

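Of 93 values computed under an alternative, 77 stayed within 1.5 times the main count, or, for a median ratio, close to its main value, and 16 did not. The distal peaks of the 8 genes numbered 6, 21 and 21 at 2, 10 and 20 months within 50 kb, and 3 genes had one at 2 months. With each list reduced to the 50% of its peaks that ranked best by q they numbered 7, 15 and 23, and in lists of equal length 15 at 10 months and 19 at 20 months. Under each of these 2 rules 3 genes had a promoter peak at 10 months. With peaks within 1 kb merged there were 9, 25 and 25 distal peaks at 2, 10 and 20 months. With a minimum width of 222 bp, that of the 10-month list, there were 8, 33 and 28. A higher number at 20 than at 10 months was thus not seen under either setting or within 50 kb. It was seen under the other settings. On the RPM scale, which also carries the fragment length, the median ratio at shared distal regions was 3.41 at 10 over 2 months, 3.00 at 20 over 2 months and 0.808 at 20 over 10 months, and the last lay below 1. With promoter regions included the median at 20 over 2 months was 1.84. Chosen after seeing the data, a summit of at least 10 times the genome mean left 9, 22 and 29 distal peaks at 2, 10 and 20 months. In every alternative run, the 8 genes had fewer distal peaks at 2 months than at either later age. No paired analysis was possible because each age has 1 library and no result comes from a test. The 2-month library, with 8 reads at its smallest summit, limits what can be said of regions without a peak at that age.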

Other observations

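Among the 76 other ECM genes, the one whose distal peak numbers over the 3 libraries were nearest to those of each integrin gene was found by the smallest sum of absolute differences. Over 3 libraries this measure is a description only. For both Itgb1 (1, 3 and 5 distal peaks at 2, 10 and 20 months) and Itgb3 (1, 4 and 4) it was Lama2 (0, 3 and 4), the laminin chain of the myofiber basement membrane. For Itgb4 (3, 8 and 10) it was Vtn (5, 7 and 10), for Itga3 (4, 6 and 8) Mmp14 (5, 7 and 9) among 2 tied genes, for Itga5 (1, 8 and 8) Adamts2 (0, 9 and 7) among 3 tied genes, and for Itgav (1, 2 and 2) the hyaluronan receptor gene Cd44 (1, 2 and 3) among 4. Itga2 (0, 2 and 1) was nearest to Fn1 (0, 2 and 2) among 2 tied genes, and Itga4 shared its 0 distal peaks at all ages with 19 genes, of which Cdh2 is the first in the alphabet.

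By side, the distal peaks of the 8 genes lay downstream of the gene in 7, 13 and 17 cases at 2, 10 and 20 months, upstream in 4, 14 and 18, and within the gene in 0, 6 and 3. The median summit of the distal integrin peaks was 13.5, 13.8 and 14.8 times the genome mean at 2, 10 and 20 months, and their median percentile in the list of their age was 75.5, 41.0 and 53.2.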
